A study of Mus musculus with 11 samples.

Results

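Genes of mitochondrial ribosomal proteins were followed across NRAS tumors, PDGFB tumors and normal brain of the mouse. They were chosen by symbol, Mrpl or Mrps followed by a number and at most 1 letter, with at least 1 FPKM in at least 3 of the 11 libraries. This gave 77 of 24320 genes, and every gene with such a symbol was above that level in all 11 libraries. FPKM counts sequenced fragments scaled by the length of the transcript and the total of the library, so levels of different genes can be set side by side.

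Mitochondria keep a ribosome of their own, which is of bacterial descent and makes the proteins that the mitochondrial DNA encodes. Those products are core subunits of the respiratory chain and of ATP synthase. All proteins of this ribosome are encoded in the nucleus, made in the cytosol and imported, some with a counterpart in the bacterial ribosome and others acquired in evolution. In brain, neurons in particular depend on oxidative phosphorylation.

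RNA was sequenced from 4 NRAS tumors, 4 PDGFB tumors and 3 normal brains. The tumors were made with the Sleeping Beauty transposon, in which a transposase moves plasmid cargo into the DNA of host cells. Plasmids for the transposase, firefly luciferase and the large T antigen of SV40, together with nRas-G12V or PDGFb, were injected into the right lateral ventricle of neonatal mice. Large T antigen, which inactivates p53 and Rb, was thus shared by both tumor groups, and the normal brains carry the label WT control. Tissue was dissected by GFP fluorescence, so that a tumor library holds host cells as well as tumor cells. The sample labels give the strain as B6 except for normal brain 3, which is FVB, while the text of the series names FVB. In the titles, normal brain 1 is matched to NRAS tumor 2, and PDGFB tumor 1 has its match in normal brain 3. No label says that replicates are separate animals. P-values therefore measure only how these samples spread, which may be technical.

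Read depth is unknown, as the values are FPKM. Nras lay at 82.0 to 154 FPKM for NRAS tumors, 31.7 to 42.9 for PDGFB tumors and 13 to 17.5 for normal brain. Pdgfb lay at 5.15 to 7.80 FPKM for NRAS tumors, 745 to 1560 for PDGFB tumors and 6.12 to 7.19 for normal brain. The share of small RNA genes in the FPKM sum was 10.5% to 42.8%, highest in PDGFB tumor 4. All 12 neuron markers were lower in PDGFB tumors and 11 of 12 in NRAS tumors, with summed levels of 362 to 1432 FPKM for NRAS tumors, 256 to 863 for PDGFB tumors and 2989 to 3422 for normal brain. Myelin genes were lower too, 9 of 9 in NRAS tumors and 8 of 9 in PDGFB tumors (median log2 fold change -2.81 and -3.01), and so were 4 and 3 of 5 choroid plexus genes. All 18 cell cycle genes were higher in both tumor groups, as were 11 of 12 leukocyte genes in NRAS tumors and 2 of 12 in PDGFB tumors. Of 7 astrocyte genes, 1 was higher and 2 lower in NRAS tumors, and 1 was higher and 3 lower in PDGFB tumors. Of 6 endothelium genes, 3 were higher and 1 lower in NRAS tumors, and 2 were higher and 2 lower in PDGFB tumors. Of 4 erythrocyte genes, 0 were higher or lower in either tumor group. The part of cell composition in the values of the ribosomal genes was not tested. In libraries of whole tissue, fewer cells of a type and less RNA per cell cannot be told apart.

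The mitochondrial ribosomal protein genes spanned 17 chromosomes, with at most 10 on chromosome 11. By the known place of the protein, 50 belong to the large subunit and 26 to the small subunit. Mrps18a and Mrps30 carry the letter of the small subunit but sit in the large. The remaining gene, Mrps36, encodes a component of the alpha-ketoglutarate dehydrogenase complex of the citric acid cycle and no ribosomal protein. Mean levels over the libraries differed 20.4-fold between the highest and the lowest gene, and 47 of the 77 lay between 20 and 60 FPKM.

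Mrpl52, a protein without bacterial counterpart, had the highest mean level. Its highest single value was 268 FPKM, in PDGFB tumor 4. Mrpl20, the relative of bacterial L20, came next. It had 106.0, 106.2, 106.6 and 103 FPKM across NRAS tumors 1 to 4, 101, 117, 104.5 and 150.2 across PDGFB tumors 1 to 4, and 99.9, 90.8 and 87.0 across normal brains 1 to 3. Every tumor was above every normal brain, yet neither difference passed the test (log2 fold change 0.19 ± 0.14 SE, adjusted p = 0.258 in NRAS tumors, and 0.33 ± 0.14, adjusted p = 0.0586 in PDGFB tumors). All 8 tumors were above all 3 normal brains in 23 of the 77 genes, and in 24.7% of all genes tested. Without PDGFB tumor 1, Mrpl20 was called higher in PDGFB tumors (0.40, adjusted p = 0.0345). Mrpl42, which has no bacterial counterpart, averaged 92.4 ± 4.92 FPKM in NRAS tumors (SD, n = 4), 106 ± 13.6 in PDGFB tumors (SD, n = 4) and 77.1 ± 10.4 in normal brain (SD, n = 3). It was called higher in PDGFB tumors (0.45, adjusted p = 0.0116). That call was lost without normal brain 2 (0.35, adjusted p = 0.0632).

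The lowest levels were those of Mrpl19, Mrpl17 and Mrpl1. Mrpl19, the relative of bacterial L19, was nearly level, with 6.70, 6.48, 7.44 and 7.34 FPKM across NRAS tumors 1 to 4, 7.15, 7.62, 6.77 and 7.0 across PDGFB tumors 1 to 4, and 6.83, 6.89 and 7.15 across normal brains 1 to 3. Its log2 fold changes were 0.00 ± 0.11 in NRAS tumors and 0.03 ± 0.11 in PDGFB tumors (SE). The exons of Mrpl19 share 1962 bases with Gcfc2 on the opposite strand, and the sources used here do not say whether the libraries keep strand. Mrpl17, at the rim of the exit tunnel, had 9.27, 7.96, 8.49 and 8.19 FPKM across NRAS tumors 1 to 4, 7.20, 7.73, 7.48 and 8.52 across PDGFB tumors 1 to 4, and 5.75, 4.46 and 4.96 across normal brains 1 to 3. All 8 tumors were above all 3 normal brains, and both differences passed the test (0.65 ± 0.13 SE, adjusted p = 0.00141 in NRAS tumors, and 0.53 ± 0.13, adjusted p = 0.00429 in PDGFB tumors). Mrpl1, the relative of the bacterial L1 stalk protein, averaged 8.96 ± 1.76 FPKM in NRAS tumors, 7.48 ± 0.485 in PDGFB tumors and 6.55 ± 0.233 in normal brain (SD, n = 4, 4 and 3). Its call in NRAS tumors (0.38, adjusted p = 0.0399) was lost without any 1 of NRAS tumors 1 and 4, PDGFB tumors 1 and 3 and the 3 normal brains (0.27 to 0.41, adjusted p = 0.0517 to 0.107).

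The median level of the 77 genes was 35.5, 32.2, 34.0 and 31.6 FPKM across NRAS tumors 1 to 4, 31.6, 35.2, 31.8 and 43.1 across PDGFB tumors 1 to 4, and 30.5, 26 and 27.2 across normal brains 1 to 3. The 8 tumors were thus all above the 3 normal brains in this median, NRAS tumors 2 and 4 and PDGFB tumors 1 and 3 by less than 2 FPKM over normal brain 1. PDGFB tumor 4 stood apart: it was the highest library for 52 of the 77 genes (67.5%), against 12.3% of all genes tested. This was not particular to the 77. The median levels of cytosolic ribosomal protein genes (1234 FPKM) and of nuclear genes of oxidative phosphorylation (188 FPKM) were also highest in PDGFB tumor 4. Normal brains 2 and 3 were the lowest libraries for 52 of the 77.

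**Figure D1:**
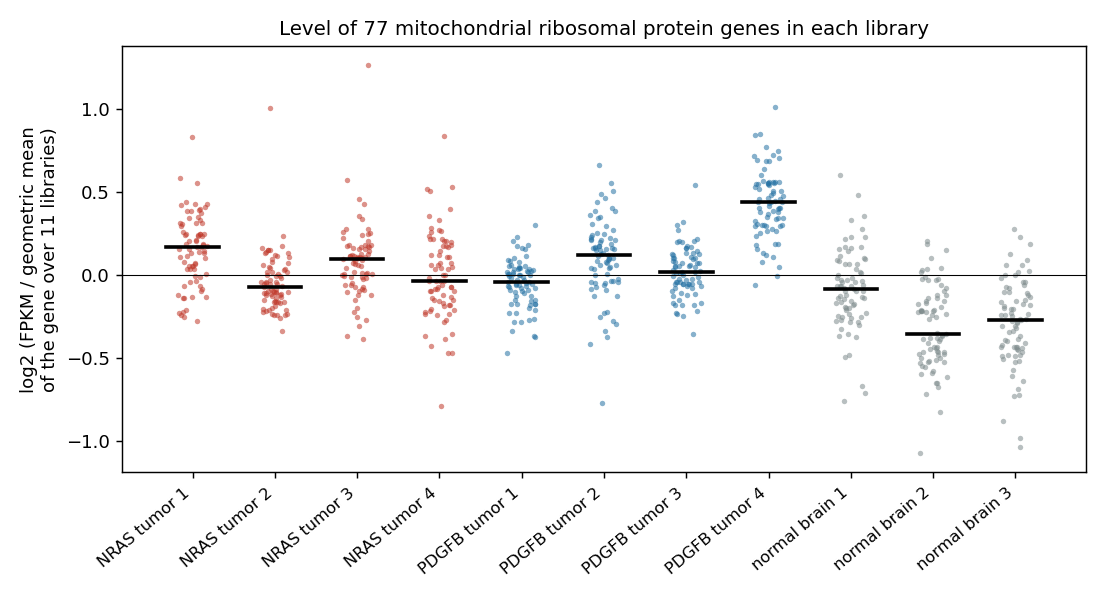
Level of the 77 genes in each library, as log2 of FPKM over the geometric mean of that gene across the 11 libraries. Each point is a gene and each black line the median of a library. The points of PDGFB tumor 4 lie highest and those of normal brains 2 and 3 lowest.

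Set against normal brain, mitochondrial ribosomal protein genes were more often higher than lower in NRAS tumors, by small amounts. By limma on log2(FPKM + 1) with Benjamini-Hochberg adjustment over 14491 genes and a threshold of 0.05, 27 of 77 were higher, Mrps25 alone was lower and 49 were not called. Among all genes tested, 32.0% were called higher and 30.3% lower. The share of higher calls among the 77, 35.1%, was thus near the background, and the share of lower calls, 1.30%, was below it. The median log2 fold change was 0.27 for the 77 and 0.01 for all genes tested. The size of the change, taken without its sign, had a median of 0.31 for the 77 and 0.66 for all genes tested. In 27 genes every NRAS tumor was above every normal brain and in 4 every tumor was below, against 33.2% and 31.9% of all genes tested.

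In PDGFB tumors 35 of the 77 were higher than in normal brain, Mrpl41 alone was lower and 41 were not called. The background was 29.3% higher and 29.2% lower. The median log2 fold change was 0.36, against 0.04 for all genes tested. Every PDGFB tumor was above every normal brain in 40 of the 77 genes and below in 1, against 33.8% and 32.0% of all genes tested. The comparisons with normal brain use the same 3 normal brains, so their counts are not independent.

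These counts leaned on single libraries and on the scaling. Without normal brain 2 the number higher was 12 in NRAS tumors and 18 in PDGFB tumors, and without normal brain 3 it was 16 and 20. Without PDGFB tumor 4, 28 were higher and 3 lower in PDGFB tumors, with a median log2 fold change of 0.28, and 4 were lower in NRAS tumors, whose own values were not touched. With small RNA genes left out of the FPKM sum, 21 were higher and 5 lower in NRAS tumors, and 25 were higher and 4 lower in PDGFB tumors; that scaling shifted the median of all genes to -0.12 and -0.08. The title numbers fall into the runs 1834 to 1838, with all normal brains and NRAS tumors 1 and 2, and 2038 to 2046, with the other tumors. Within the first run 14 genes were higher in NRAS tumors and 0 lower. PDGFB tumors and normal brain share no run. A fit with the run as a term, which rests on the NRAS tumors alone, called 5 higher and 0 lower in PDGFB tumors with a median log2 fold change of 0.36. Of the calls in PDGFB tumors against normal brain that are described here for single genes of the 77, those of Mrpl52 and Mrpl50 held in that fit, and those of Mrps5, Mrps6, Mrps11, Mrps18c, Mrps28, Mrpl13, Mrpl17, Mrpl18, Mrpl22, Mrpl33, Mrpl41 and Mrpl42 did not (adjusted p = 0.0514 to 0.339). In NRAS tumors the calls of Mrps11, Mrps18c, Mrps25, Mrpl1 and Mrpl18 did not hold in it (adjusted p = 0.0535 to 0.10).

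**Figure D2:**
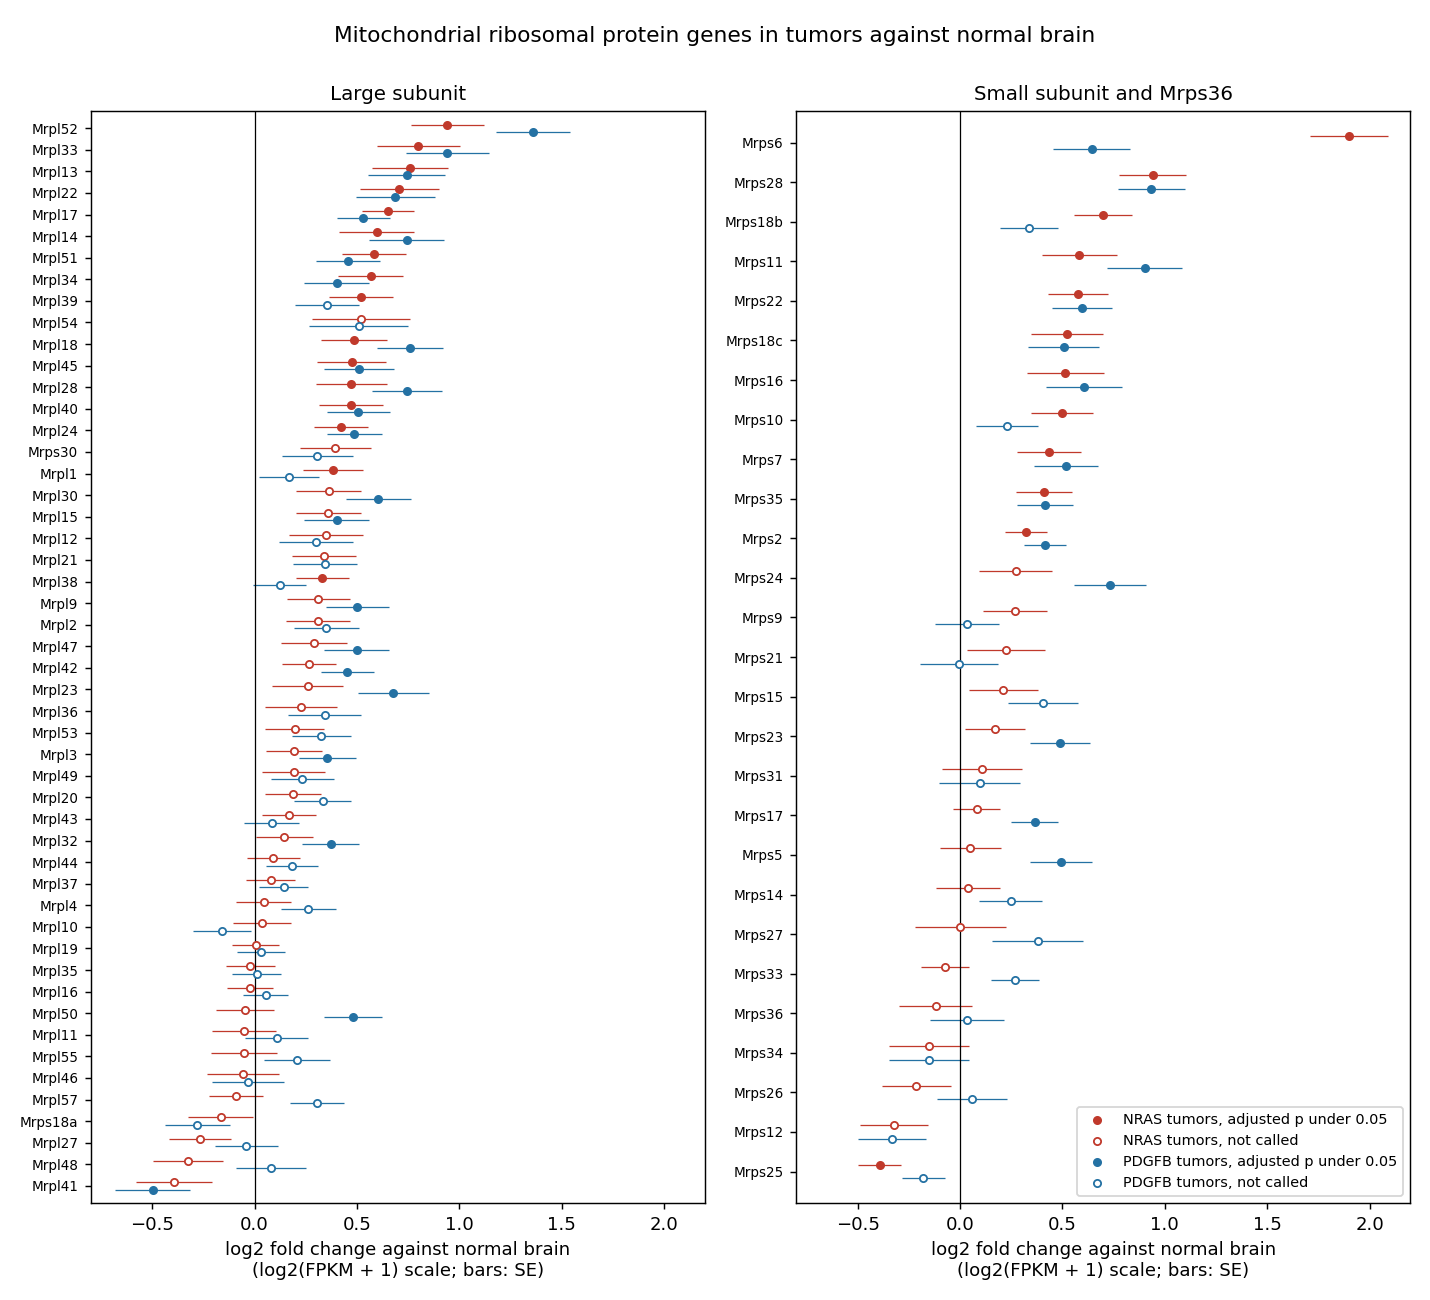
Log2 fold change of each gene in NRAS tumors (red) and PDGFB tumors (blue) against normal brain on the log2(FPKM + 1) scale, with bars for the SE; filled points have an adjusted p under 0.05. Most points lie between 0 and 1, and Mrps6 in NRAS tumors lies farthest right at 1.90.

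Promoters are shown for 6 of these genes, some called higher in both tumor groups and the others called lower in a single tumor group. Of the 77, 22 were called higher in both tumor groups and 35 were called in neither. RefSeq windows of 250 bases before to 50 bases after the start (GRCm38.p6) were found for 68 of the 77. Printed is the stretch before the start that overlaps no annotated exon, 5′ to 3′ on the strand of the gene, with matches to the motifs searched in capitals. The motifs, searched on both strands, were GCGCANGCGC for NRF1, CCGGAAG for ETS factors such as GABP, CACGTG for the E-box bound by MYC, AAGATGGC for YY1 and GGGGCGGGG for SP1. Mrps6 and Mrpl52 had the largest rises in NRAS and PDGFB tumors, Mrpl22 and Mrpl17 rose in both, and Mrpl41 and Mrps25 were the genes called lower. Genes called higher in both tumor groups were printed only if their stretch held a match. Those called lower were printed with or without one.
Mrps6, chr16:92058086-92058269, plus strand: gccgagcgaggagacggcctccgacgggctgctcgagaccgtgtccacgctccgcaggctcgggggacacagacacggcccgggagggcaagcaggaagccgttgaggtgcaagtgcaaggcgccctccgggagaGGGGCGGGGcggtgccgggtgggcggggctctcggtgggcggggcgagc
Mrpl52, chr14:54426659-54426908, plus strand: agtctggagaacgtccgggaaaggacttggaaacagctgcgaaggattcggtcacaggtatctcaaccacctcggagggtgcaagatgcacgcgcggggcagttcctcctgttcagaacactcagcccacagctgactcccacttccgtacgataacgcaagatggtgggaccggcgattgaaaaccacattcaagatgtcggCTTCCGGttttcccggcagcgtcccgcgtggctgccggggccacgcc
Mrpl22, chr11:58171414-58171660, plus strand: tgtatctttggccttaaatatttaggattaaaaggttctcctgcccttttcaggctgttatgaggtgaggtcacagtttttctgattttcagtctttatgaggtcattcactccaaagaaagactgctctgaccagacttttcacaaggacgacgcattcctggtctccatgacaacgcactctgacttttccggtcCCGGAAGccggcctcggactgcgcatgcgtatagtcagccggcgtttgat
Mrpl17, chr7:105811100-105811337, minus strand: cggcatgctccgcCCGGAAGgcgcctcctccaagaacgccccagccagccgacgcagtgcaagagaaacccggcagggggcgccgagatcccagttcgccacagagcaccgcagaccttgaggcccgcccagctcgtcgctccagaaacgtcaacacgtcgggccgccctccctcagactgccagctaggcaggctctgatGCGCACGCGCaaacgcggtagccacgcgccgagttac
Mrpl41, chr2:24975099-24975348, minus strand: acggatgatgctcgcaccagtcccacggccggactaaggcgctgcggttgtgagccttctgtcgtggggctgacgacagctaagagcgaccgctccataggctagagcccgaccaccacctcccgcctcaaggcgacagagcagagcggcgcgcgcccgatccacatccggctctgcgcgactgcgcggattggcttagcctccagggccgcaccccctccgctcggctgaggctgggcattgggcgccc
Mrps25, chr6:92184034-92184273, minus strand: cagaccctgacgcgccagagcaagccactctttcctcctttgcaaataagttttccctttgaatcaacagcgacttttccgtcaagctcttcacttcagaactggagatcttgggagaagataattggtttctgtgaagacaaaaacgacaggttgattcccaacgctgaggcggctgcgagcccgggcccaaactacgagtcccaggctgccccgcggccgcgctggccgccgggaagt

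The capitals mark a match for SP1 in Mrps6, for ETS factors in Mrpl52 and Mrpl22, and for ETS factors and then NRF1 in Mrpl17. No motif searched lay in the stretches of Mrpl41 and Mrps25. As a match was a condition for printing the genes called higher, this contrast follows in part from the choice. Over the whole windows, the ETS motif was in 24 of 68 promoters of these genes (35.3%), against 16.5% of the promoters of genes tested and 9.12% of all promoters. The NRF1 motif was in 19.1%, against 9.75% and 4.78%, and the YY1 motif in 17.6%, against 4.44% and 2.88%. The E-box was in 7.35%, against 10.03% and 7.24%, and the SP1 motif in 19.1%, against 21.7% and 11.6%. These are matches of letters in a window, not measured binding.

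Among small subunit genes, 11 of 26 were higher (42.3%) and 1 lower (3.85%) in NRAS tumors. In PDGFB tumors 13 of 26 were higher and 0 lower. The background over all genes tested was 32.0% higher and 30.3% lower in NRAS tumors, and 29.3% and 29.2% in PDGFB tumors. The shares of higher calls were thus above it and those of lower calls below it, and these differences were not tested. Mrps6 had the largest change of the 77. Its protein is the relative of bacterial S6, which in bacteria pairs with S18 on the platform of the small subunit. It had 141, 159, 190.3 and 142 FPKM across NRAS tumors 1 to 4, 65.5, 46.4, 70.3 and 83.5 across PDGFB tumors 1 to 4, and 46.8, 37.6 and 40.1 across normal brains 1 to 3. NRAS tumors did not overlap with either other group, while PDGFB tumor 2 lay just under normal brain 1. The means stood 3.81-fold apart between NRAS tumors and normal brain and 2.38-fold between NRAS and PDGFB tumors. The log2 fold changes were 1.90 ± 0.19 in NRAS tumors against normal brain (SE, adjusted p = 2.93e-05), 0.64 ± 0.19 in PDGFB tumors against normal brain (adjusted p = 0.0127) and 1.26 ± 0.17 in NRAS against PDGFB tumors (adjusted p = 0.000975). The call in PDGFB tumors was lost without normal brain 2 (0.58, adjusted p = 0.0524).

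Mrps6 (chr16:92058270-92112227, mm10) contains another gene on the same strand, Slc5a3, which encodes a myo-inositol transporter and shares 159 exon bases with it. A further coding gene annotated on that strand, Gm49711, shares 305 exon bases with Mrps6. Slc5a3 had 23.3, 29.2, 30.0 and 19.0 FPKM across NRAS tumors 1 to 4, 7.95, 6.51, 7.12 and 3.94 across PDGFB tumors 1 to 4, and 7.17, 7.16 and 5.43 across normal brains 1 to 3. It was thus higher in NRAS tumors than in both other groups without overlap (log2 fold change 1.78 against normal brain, adjusted p = 0.000126, and 1.85 against PDGFB tumors, adjusted p = 0.000345). PDGFB tumors and normal brain overlapped (-0.07, adjusted p = 0.823). The sources used here do not say how fragments in shared exons were divided between the genes. The part of Slc5a3 or Gm49711 in the value of Mrps6 was not tested.

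Mrps28, the relative of bacterial S1, was higher by about the same amount in both tumor groups. It had 38.9, 37.3, 45.3 and 40.9 FPKM across NRAS tumors 1 to 4, 34.9, 47.8, 32.0 and 49.1 across PDGFB tumors 1 to 4, and 20.5, 23.4 and 18.2 across normal brains 1 to 3. All tumors were above all normal brains. The log2 fold changes were 0.94 ± 0.16 in NRAS tumors (SE, adjusted p = 0.000733) and 0.93 ± 0.16 for PDGFB tumors (adjusted p = 0.000729).

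Mrps11, the relative of bacterial S11, had 32.7, 24.6, 28.9 and 28.2 FPKM across NRAS tumors 1 to 4, 27.5, 38.7, 30.9 and 49.6 across PDGFB tumors 1 to 4, and 19.7, 18.3 and 18.1 across normal brains 1 to 3. It was higher in NRAS tumors (0.58 ± 0.18 SE, adjusted p = 0.0160) and also in PDGFB tumors (0.90 ± 0.18, adjusted p = 0.00155). The call in NRAS tumors was lost without normal brain 3 (0.56, adjusted p = 0.0508). Its head-to-head neighbour Mrpl46, a large subunit gene singled out after its values were seen, shares 173 exon bases with Mrps11 on the opposite strand. Mrpl46 averaged 23.2 ± 1.39 FPKM in NRAS tumors, 24.2 ± 6.96 in PDGFB tumors and 24.2 ± 2.33 in normal brain (SD, n = 4, 4 and 3), with log2 fold changes of -0.06 and -0.03 that did not pass the test (adjusted p = 0.793 and 0.895). Genes that share a start region thus differed in their values, with Mrps11 called and Mrpl46 not.

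The S18 family has 3 genes in mammals. Mrps18c is the relative of bacterial S18, Mrps18b takes another place in the small subunit, and Mrps18a is the one of the large. Mrps18b had 42.6, 35.4, 39.1 and 46.2 FPKM across NRAS tumors 1 to 4, 30.2, 29.6, 27.4 and 39.6 across PDGFB tumors 1 to 4, and 27.0, 23.4 and 23.7 across normal brains 1 to 3. Every tumor was above every normal brain, and the tumor groups overlapped. It was called higher in NRAS tumors (0.70 ± 0.14 SE, adjusted p = 0.00172) and not in PDGFB tumors (0.34 ± 0.14, adjusted p = 0.0614), and the models did not differ past the threshold (0.36 ± 0.13, adjusted p = 0.0648). Leaving out a library turned those misses into calls: without PDGFB tumor 3, Mrps18b was higher in PDGFB tumors (0.40, adjusted p = 0.0478), and without NRAS tumor 2 or PDGFB tumor 4 it was higher in NRAS than in PDGFB tumors (0.43, adjusted p = 0.0384, and 0.47, adjusted p = 0.0146). Mrps18c averaged 82.4 ± 11.6 FPKM in NRAS tumors, 81.9 ± 16.8 in PDGFB tumors and 56.9 ± 7.39 in normal brain (SD, n = 4, 4 and 3). It was called higher in NRAS tumors (0.52, adjusted p = 0.0224) and also in PDGFB tumors (0.51, adjusted p = 0.0276). The call was lost in NRAS tumors without NRAS tumor 1, normal brain 2 or normal brain 3 (0.43 to 0.53, adjusted p = 0.0549 to 0.0949), and in PDGFB tumors without PDGFB tumor 2, PDGFB tumor 4, normal brain 2 or normal brain 3 (0.39 to 0.51, adjusted p = 0.0601 to 0.114). Mrps18a averaged 53.5 ± 5.33 FPKM in NRAS tumors, 49.9 ± 10.8 in PDGFB tumors and 60.1 ± 6.32 in normal brain (SD, n = 4, 4 and 3). Its log2 fold changes of -0.17 and -0.28 did not pass the test (adjusted p = 0.382 and 0.15), but without PDGFB tumor 4 it was called lower in PDGFB tumors (-0.42, adjusted p = 0.0121).

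Mrps25, a small subunit protein without bacterial counterpart, was the gene called lower in NRAS tumors. It had 17.9, 18.4, 15.3 and 17.6 FPKM across NRAS tumors 1 to 4, 18.5, 21.2, 20.6 and 20.4 across PDGFB tumors 1 to 4, and 23.9, 22.5 and 22.5 across normal brains 1 to 3. Every tumor was below every normal brain. NRAS tumors were below PDGFB tumors by a narrow margin, 18.4 against 18.5 FPKM at the closest. The models did not differ past the threshold (-0.21 ± 0.10 SE in NRAS against PDGFB tumors, adjusted p = 0.131). Against normal brain the log2 fold change was -0.39 ± 0.10 in NRAS tumors (SE, adjusted p = 0.00752) and -0.18 ± 0.10 for PDGFB tumors (adjusted p = 0.164). Within title numbers 1834 to 1838 the call in NRAS tumors was lost (-0.32, adjusted p = 0.0879). The exons of Mrps25 share 4590 bases with Nr2c2 on the opposite strand, a nuclear receptor gene that averaged 4.88 ± 0.416 FPKM in NRAS tumors, 6.98 ± 3.20 in PDGFB tumors and 9.24 ± 2.69 in normal brain (SD, n = 4, 4 and 3). The part of that overlap in the value of Mrps25 was not tested.

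Mrps36, the gene of the dehydrogenase component, averaged 32.5 ± 4.95 FPKM in NRAS tumors, 36.4 ± 6.99 in PDGFB tumors and 35.3 ± 5.45 in normal brain (SD, n = 4, 4 and 3). Its groups overlapped and neither difference passed the test (log2 fold change -0.12, adjusted p = 0.580, and 0.03, adjusted p = 0.886).

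Among large subunit genes, 16 of 50 were higher (32.0%) and 0 lower in NRAS tumors. In PDGFB tumors 22 were higher (44.0%) and 1 lower (2.0%). Of all genes tested, 32.0% were higher in NRAS tumors and 29.3% in PDGFB tumors, so the share in NRAS tumors was at the background. Mrpl52, placed at the central protuberance, had 156, 139, 144 and 133 FPKM across NRAS tumors 1 to 4, 164, 157.5, 193 and 268 across PDGFB tumors 1 to 4, and 83.6, 74.9 and 64.7 across normal brains 1 to 3. The 3 groups did not overlap, with PDGFB tumors on top. PDGFB tumors stood 2.63-fold over normal brain in the mean, the only call of 2-fold or more among the 77 in that comparison, as Mrps6 was in NRAS tumors. The log2 fold changes were 0.94 ± 0.18 in NRAS tumors (SE, adjusted p = 0.00120) and 1.36 ± 0.18 for PDGFB tumors (adjusted p = 0.000143). The models did not differ past the threshold (-0.42 ± 0.17, adjusted p = 0.0861), and this difference was -0.26 without PDGFB tumor 4.

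**Figure D3:**
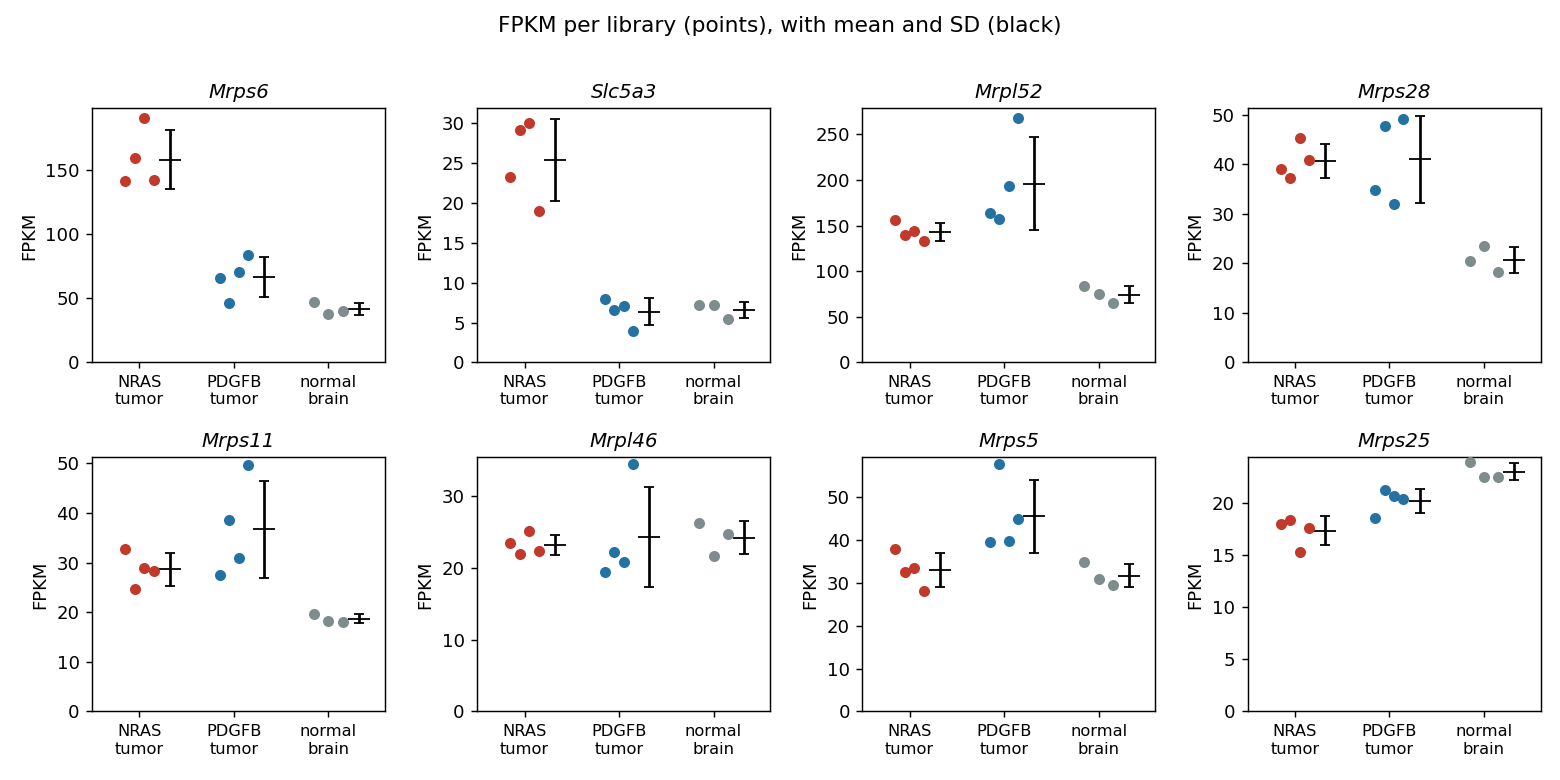
FPKM per library of 7 mitochondrial ribosomal protein genes and of Slc5a3, which shares exon bases with Mrps6; points are libraries and black marks the mean and SD of a group. Mrps6 and Slc5a3 are high in all NRAS tumors, Mrpl52 and Mrps28 are high in all 8 tumors, and Mrps25 is low in all 8.

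Mrpl33, the relative of bacterial L33, had 73.8, 61.9, 71.8 and 96.5 FPKM across NRAS tumors 1 to 4, 67.4, 75.3, 76.9 and 120.3 across PDGFB tumors 1 to 4, and 47.4, 40.6 and 40.3 across normal brains 1 to 3. It was higher in NRAS tumors (0.80 ± 0.20 SE, adjusted p = 0.00552) and also in PDGFB tumors (0.94 ± 0.20, adjusted p = 0.00226). All tumors were above all normal brains. Mrpl13, the relative of bacterial L13, had 81.6, 62.7, 102.5 and 77.6 FPKM across NRAS tumors 1 to 4, 65.5, 81.2, 72.3 and 101 across PDGFB tumors 1 to 4, and 53.7, 46.0 and 41.4 across normal brains 1 to 3. It too was higher in every tumor than in any normal brain (0.76 ± 0.19, adjusted p = 0.00472 in NRAS tumors, and 0.74 ± 0.19, adjusted p = 0.00546 in PDGFB tumors). Mrpl13 shares 330 exon bases with Mtbp on the opposite strand, and Mtbp averaged 10.8 ± 3.41 FPKM in NRAS tumors, 14.7 ± 5.62 in PDGFB tumors and 1.02 ± 0.110 in normal brain (SD, n = 4, 4 and 3). The part of that overlap was not tested.

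Mrpl18, at the central protuberance and in bacteria a binder of 5S ribosomal RNA, had 67.6, 59.1, 64.6 and 72.5 FPKM across NRAS tumors 1 to 4, 64.3, 94.4, 70.0 and 95.0 across PDGFB tumors 1 to 4, and 52.9, 46.8 and 41.2 across normal brains 1 to 3. Every tumor was above every normal brain. It was called higher in NRAS tumors (0.48 ± 0.16 SE, adjusted p = 0.0214) and also in PDGFB tumors (0.76 ± 0.16, adjusted p = 0.00206). The call in NRAS tumors was lost without NRAS tumor 4, normal brain 2 or normal brain 3 (0.40 to 0.49, adjusted p = 0.0507 to 0.0923). Its neighbour Tcp1, a chaperonin subunit gene that shares 141 exon bases on the opposite strand, averaged 106 ± 16.9 FPKM in NRAS tumors, 113 ± 10.4 in PDGFB tumors and 71.9 ± 4.24 in normal brain (SD, n = 4, 4 and 3).

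Mrpl41, a large subunit protein without bacterial counterpart, was the gene called lower in PDGFB tumors. It had 11.1, 12.7, 13.4 and 14.0 FPKM across NRAS tumors 1 to 4, 10.4, 10.4, 10.5 and 17.1 across PDGFB tumors 1 to 4, and 20.4, 15.4 and 15.8 across normal brains 1 to 3. PDGFB tumor 4 lay above 2 of the normal brains, while every NRAS tumor was below all of them. The log2 fold change was -0.39 ± 0.18 in NRAS tumors (SE, adjusted p = 0.0837) and -0.50 ± 0.18 for PDGFB tumors (adjusted p = 0.0371). The call in PDGFB tumors was lost without any 1 of PDGFB tumors 1, 2 and 3 or of the normal brains (-0.57 to -0.37, adjusted p = 0.0519 to 0.155), and without PDGFB tumor 4 Mrpl41 was called lower in NRAS tumors (-0.39, adjusted p = 0.0217).

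The sites were not tested against each other; among all genes tested, 32.0% were called higher in NRAS tumors and 29.3% in PDGFB tumors. Of 8 genes at the rim of the exit tunnel, where the new chain leaves the ribosome, 5 were higher in NRAS tumors (62.5%) and 6 in PDGFB tumors (75.0%), and all 8 had positive log2 fold changes in each comparison (median 0.45 and 0.50). Mrpl22, chosen after its values were seen, averaged 41.6 ± 7.72 FPKM in NRAS tumors, 41.3 ± 9.34 in PDGFB tumors and 25.0 ± 3.75 in normal brain (SD, n = 4, 4 and 3). Of the 7 genes at the central protuberance, 4 were higher in NRAS tumors (57.1%) and 3 in PDGFB tumors (42.9%). Of the 5 genes of the L7/L12 stalk and its base, the landing site of translation factors, 0 were called by limma at an adjusted p under 0.05. The stalk protein Mrpl12, relative of bacterial L7/L12, had 89.5, 80.7, 80.6 and 73.9 FPKM across NRAS tumors 1 to 4, 66.4, 72.4, 70.9 and 110.5 across PDGFB tumors 1 to 4, and 75.0, 53.8 and 63.3 across normal brains 1 to 3. The groups overlapped (0.35 ± 0.18 SE, adjusted p = 0.113 in NRAS tumors, and 0.30 ± 0.18, adjusted p = 0.174 in PDGFB tumors). Without PDGFB tumor 4, Mrpl12 was called higher in NRAS tumors (0.35, adjusted p = 0.0309). Mrps30, the large subunit protein with a small subunit name, averaged 21.6 ± 3.87 FPKM in NRAS tumors, 20.3 ± 4.0 in PDGFB tumors and 16 ± 1.21 in normal brain (SD, n = 4, 4 and 3), and was not called (0.39, adjusted p = 0.0665, and 0.31, adjusted p = 0.149). It was called higher in NRAS tumors without NRAS tumor 4 or PDGFB tumor 4 (0.51, adjusted p = 0.0206, and 0.39, adjusted p = 0.0355).

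By descent, 18 of the 46 proteins with a bacterial counterpart were higher in NRAS tumors (39.1%) and 26 in PDGFB tumors (56.5%), with 0 lower in either. Of the 30 without one, 9 were higher (30.0%) and 1 lower (3.33%) in each comparison. Against the background of 32.0% and 29.3% higher, the share was near it for those without a counterpart in both comparisons and for those with one in NRAS tumors. The difference between these classes was not tested.

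Between the models, few of the 77 differed. Mrps6 was higher in NRAS than in PDGFB tumors, 4 genes were lower and 72 were not called, against a background of 14.3% higher and 12.2% lower. The median log2 fold change was -0.08 for the 77 and -0.04 for all genes tested. It was 0.01 without PDGFB tumor 4. Within title numbers 2038 to 2046, which hold NRAS tumors 3 and 4 and all PDGFB tumors, 1 was higher and 1 lower. Quantile normalization called 2 higher and 4 lower, and upper-quartile scaling 2 higher and 1 lower.

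Mrpl50, a large subunit protein without bacterial counterpart, was the 1 of these 4 genes whose call between the models was kept in every alternative run. It had 26, 19.6, 18.7 and 16.7 FPKM across NRAS tumors 1 to 4, 26.2, 30.7, 28.9 and 31.4 across PDGFB tumors 1 to 4, and 20.7, 20.6 and 20.7 across normal brains 1 to 3. PDGFB tumors were above both other groups, narrowly so over NRAS tumor 1. The log2 fold change was -0.53 ± 0.13 in NRAS against PDGFB tumors (SE, adjusted p = 0.0137), -0.05 ± 0.14 in NRAS tumors against normal brain (adjusted p = 0.793) and 0.48 ± 0.14 in PDGFB tumors against normal brain (adjusted p = 0.0130). With small RNA genes left out of the sum, the call against normal brain was lost (0.33, adjusted p = 0.0738).

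Mrps5, the relative of bacterial S5 at the channel where messenger RNA enters, had 37.8, 32.5, 33.4 and 28.2 FPKM across NRAS tumors 1 to 4, 39.5, 57.8, 39.8 and 45.0 across PDGFB tumors 1 to 4, and 34.7, 30.9 and 29.4 across normal brains 1 to 3. PDGFB tumors were again on top without overlap (-0.44 ± 0.14 SE in NRAS against PDGFB tumors, adjusted p = 0.0376, and 0.49 ± 0.15 in PDGFB tumors against normal brain, adjusted p = 0.0155). The call between the models was lost without any 1 of NRAS tumors 2, 3 and 4, PDGFB tumors 2 and 4 or the normal brains (-0.45 to -0.33, adjusted p = 0.0501 to 0.103). The call against normal brain was lost without normal brain 3 (0.44, adjusted p = 0.0620).

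Mrpl57 and Mrps33, which have no bacterial counterpart, made up the rest. Mrpl57 averaged 7.03 ± 0.816 FPKM in NRAS tumors, 9.56 ± 0.804 in PDGFB tumors and 7.55 ± 0.733 in normal brain (SD, n = 4, 4 and 3), with a log2 fold change of -0.40 ± 0.12 between the models (SE, adjusted p = 0.0338). Its call was lost without any 1 of NRAS tumors 1, 3 and 4, PDGFB tumors 1, 3 and 4 or normal brain 2 (-0.43 to -0.35, adjusted p = 0.0537 to 0.0861). Mrps33 averaged 65.0 ± 2.92 FPKM in NRAS tumors, 83.2 ± 11.4 in PDGFB tumors and 68.5 ± 3.55 in normal brain (SD, n = 4, 4 and 3), with -0.34 ± 0.11 between the models (SE, adjusted p = 0.0391). Its call was lost without any 1 of NRAS tumors 1, 3 and 4, PDGFB tumors 2, 3 and 4 or the normal brains (-0.36 to -0.25, adjusted p = 0.0519 to 0.0969), and Mrps33 was called higher in PDGFB tumors than in normal brain without PDGFB tumor 1 (0.33, adjusted p = 0.0374).

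Other genes that serve the mitochondrial ribosome were called in both directions, and their shares are to be read against the background given for all genes, 32.0% higher and 30.3% lower in NRAS tumors and 29.3% and 29.2% in PDGFB tumors. Of 6 further mitoribosomal proteins that carry other symbols, Chchd1, a small subunit protein, was higher in both tumor groups and the other 5 were not called. Chchd1 averaged 109 ± 12.8 FPKM in NRAS tumors, 125 ± 28.6 in PDGFB tumors and 62.4 ± 8.98 in normal brain (SD, n = 4, 4 and 3; log2 fold change 0.80, adjusted p = 0.00262, and 0.98, adjusted p = 0.000834). Of 26 assembly factors of the ribosome, 7 were higher (26.9%) and 5 lower (19.2%) in NRAS tumors, and 8 were higher (30.8%) and 1 lower (3.85%) in PDGFB tumors. Malsu1, which guards the large subunit during its assembly, averaged 18.9 FPKM in NRAS tumors, 25.0 in PDGFB tumors and 10.3 in normal brain (log2 fold change 0.81 and 1.19). Of 11 translation factors, 2 were higher and 2 lower in each comparison (18.2% each). The elongation factor Tsfm was higher in both (0.65 and 0.59), though not within title numbers 1834 to 1838 in NRAS tumors (0.56, adjusted p = 0.0543). The initiation factor Mtif2 was lower in both (-0.46 and -0.30); its call in PDGFB tumors was lost without any 1 of PDGFB tumors 1 and 2 or the normal brains (-0.32 to -0.27, adjusted p = 0.0688 to 0.101). Of 20 mitochondrial aminoacyl-tRNA synthetases and related enzymes, which charge the tRNAs, 0 were higher and 3 lower (15.0%) in NRAS tumors, and 3 were higher (15.0%) and 2 lower (10%) in PDGFB tumors. The shares of these 3 lists thus lay near or below the background. Of 4 genes for the insertion of the products, 0 were higher and 1 lower in NRAS tumors, and 1 was higher and 1 lower in PDGFB tumors.

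Among 10 genes that copy and express the mitochondrial DNA, 4 were higher in NRAS tumors, and 7 were higher and 1 lower in PDGFB tumors. Polg, the DNA polymerase of mitochondria, had 26.1, 19.3, 17.7 and 14.9 FPKM across NRAS tumors 1 to 4, 57.8, 74.2, 66.7 and 53.8 across PDGFB tumors 1 to 4, and 12.2, 14.3 and 15.8 across normal brains 1 to 3. All PDGFB tumors were far above the rest (log2 fold change -1.66 in NRAS against PDGFB tumors, adjusted p = 0.000219, and 2.08 in PDGFB tumors against normal brain, adjusted p = 1.23e-05). In NRAS tumors it was not called against normal brain (0.42, adjusted p = 0.0644), but was without NRAS tumor 4 (0.53, adjusted p = 0.0251). Ssbp1, which coats single strands of that DNA, was higher in both tumor groups (0.64 and 0.87), though not within title numbers 1834 to 1838 in NRAS tumors (0.61, adjusted p = 0.0510). Genes of the mitochondrial DNA itself were not analysed here.

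Of 15 genes for import, chaperones and the outer membrane, 6 were higher and 3 lower in NRAS tumors, and 4 were higher and 3 lower in PDGFB tumors. Timm50, of the inner membrane import channel, averaged 44.5 FPKM in NRAS tumors, 61.6 in PDGFB tumors and 20.3 in normal brain (log2 fold change 1.06 and 1.54). Hspe1, the lid of the matrix chaperonin, averaged 169 FPKM in NRAS tumors, 177 in PDGFB tumors and 85.5 in normal brain (0.98 and 1.04). The 3 genes called lower, named after their values were seen, were in both comparisons the outer membrane receptors Tomm20 (-0.88 and -0.75) and Tomm70a (-0.60 and -0.63) and the pore Vdac1 (-0.70 and -0.66). Within title numbers 1834 to 1838 the call of Vdac1 in NRAS tumors was lost (-0.59, adjusted p = 0.0606). With the run as a term, the calls of Chchd1, Tsfm, Mtif2, Hspe1, Tomm20 and Vdac1 in PDGFB tumors were lost (adjusted p = 0.0507 to 0.246).

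Ribosomal proteins of the cytosol and nuclear genes of oxidative phosphorylation differed from the mitochondrial ribosome in their counts. Of 81 cytosolic ribosomal protein genes, 78 were higher and 1 lower in NRAS tumors (median log2 fold change 1.38), and 79 were higher and 1 lower in PDGFB tumors (1.58). Of 84 nuclear genes of oxidative phosphorylation, 5 were higher (5.95%) and 27 lower (32.1%) in NRAS tumors (-0.30). In PDGFB tumors 5 were higher (5.95%) and 17 lower (20.2%), with a median of -0.23. Their summed level was 14390, 15470, 15610 and 23220 FPKM across PDGFB tumors 1 to 4, and 16760 to 20760 in normal brain. PDGFB tumors 1 to 3 thus lay below every normal brain in this sum, and PDGFB tumor 4 above. The medians of the mitochondrial ribosome, 0.27 and 0.36, lay between those of these lists. Among all genes tested, 32.0% were higher and 30.3% lower in NRAS tumors, and 29.3% and 29.2% in PDGFB tumors. The share of lower calls for oxidative phosphorylation was thus near that background in NRAS tumors and below it in PDGFB tumors. Its share of higher calls was below the background in both. No test of the difference between lists was made.

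**Figure D4:**
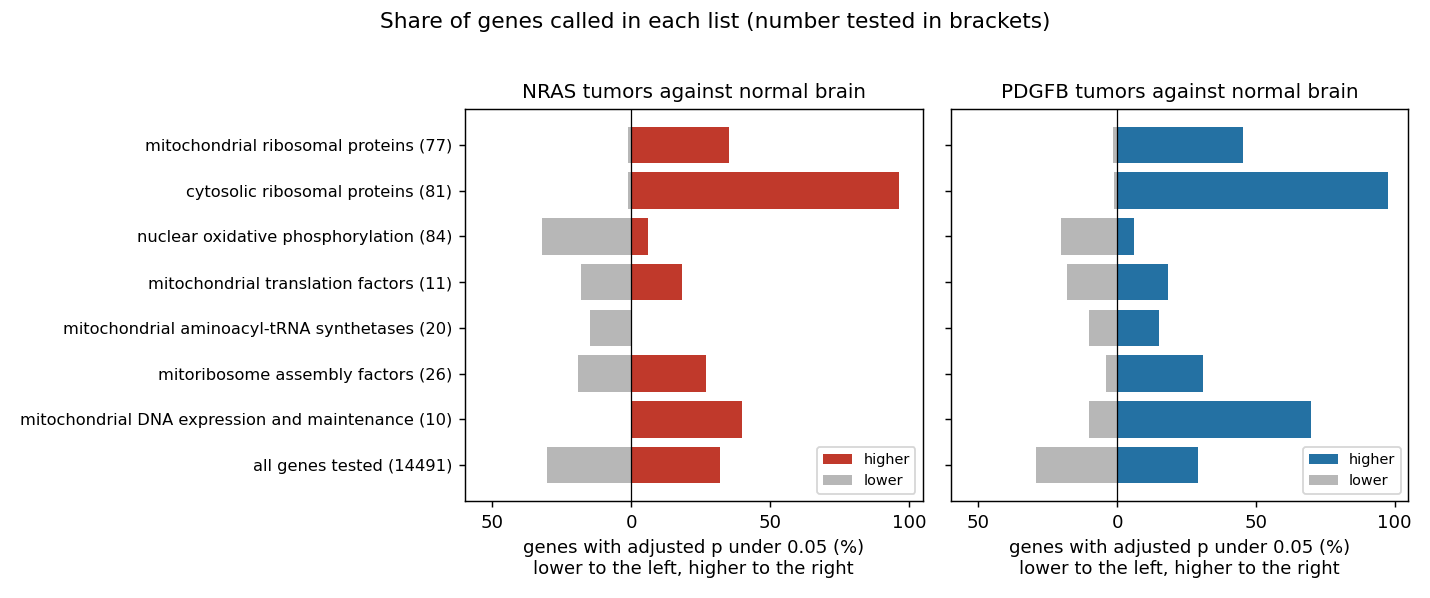
Share of genes with an adjusted p under 0.05 that were higher (coloured, to the right) or lower (grey, to the left) in NRAS tumors and in PDGFB tumors against normal brain, for 7 lists and all genes tested. The mitochondrial ribosomal protein genes reach 35.1% and 45.5% to the right, and the cytosolic ones 96.3% and 97.5%.

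Of 10 factors known to act on nuclear genes of mitochondria, 6 were higher and 2 lower in NRAS tumors, and 7 were higher and 2 lower in PDGFB tumors. Myc had 50.6, 19.7, 37.6 and 20.7 FPKM across NRAS tumors 1 to 4, 34.7, 55.4, 33.9 and 43.8 across PDGFB tumors 1 to 4, and 1.62, 1.98 and 1.49 across normal brains 1 to 3 (log2 fold change 3.52, adjusted p = 1.20e-05, and 3.97, adjusted p = 5.35e-06). Every tumor was thus far above every normal brain. Mycn averaged 2.99 FPKM in NRAS tumors, 10.6 in PDGFB tumors and 3.42 in normal brain, and was called only against normal brain in PDGFB tumors (1.38, adjusted p = 0.000625) and between the models (-1.56, adjusted p = 0.00101). The factors of the ETS, YY1 and NRF1 motifs were higher in both tumor groups: Gabpa by 1.09 and 1.52, its partner Gabpb1 by 0.78 and 1.15, Yy1 by 0.89 and 0.97, and Nrf1 by 0.67 and 1.08. The call of Nrf1 in NRAS tumors was lost within title numbers 1834 to 1838 (0.68, adjusted p = 0.0556). Coactivators went apart. Pprc1 was higher (1.21 and 1.25), Ppargc1a was lower (-1.35 and -1.88), and Ppargc1b, near 1 FPKM in tumors, was lower (-0.67 and -0.86). In NRAS tumors the call of Ppargc1b was lost without any 1 of NRAS tumors 1 and 4 and normal brains 2 and 3 (-0.61 to -0.55, adjusted p = 0.0736 to 0.121), and in both comparisons with the run as a term (-0.70, adjusted p = 0.0748, and -0.92, adjusted p = 0.104). The receptor Esrra was not called (-0.31, adjusted p = 0.240, and -0.36, adjusted p = 0.181). The levels of these factors stand beside those of the ribosomal genes as measurements, and their part in them was not tested.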

How the data were processed

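RNA from 11 mouse brain libraries was sequenced, and the authors deposited FPKM values in 1 table. Cufflinks 2.2.1, TopHat2 2.0.13 and the build mm10 are listed, per the submitters' processing notes, with settings, strand and annotation not given in the sources used here. As FPKM are relative to the library total, abundant small RNAs can lower all other genes. Of 24347 rows, 27 with names turned into dates were left out.

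Group means of log2(FPKM + 1) were fitted over all 11 libraries with limma 3.58.1 in R 4.3.3 (eBayes with trend). The 14491 genes that reached 1 FPKM in 3 or more libraries were tested two-sided, and p-values were adjusted over them by Benjamini-Hochberg, with a threshold of 0.05. Fold changes on this scale understate those of low genes. The fit was checked on simulated data. Positions and shared exon bases come from GENCODE vM21 (GRCm38), and promoters from RefSeq (GRCm38.p6).

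Genes chosen by rule were described singly, by library or by group mean. They were, per comparison with normal brain, the 5 highest and 5 lowest called log2 fold changes, and between the models the 4 highest and 4 lowest. The 3 highest and 3 lowest levels and 7 genes for their roles were added. Of other lists, the regulators and up to 3 called genes were taken. The genes and lists were chosen with earlier results of these data known. Alternatives were another pseudocount, no filter, other scalings, each library left out, replicate and matched-pair blocks, title number runs, separate fits and no trend; upper-quartile scaling was added after seeing the data.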

Additional observations from a re-analysis of the deposited data

Results flagged for a closer look

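Of the 77 genes in each tumor group, 154 sets of 4 values, 18 held a single tumor that stood apart from the other 3 by Dixon's test, which flags about 1 in 20 groups by chance. In 14 of the 18 this was PDGFB tumor 4, always high. Its level was 17.1 FPKM for Mrpl41, 18.2 for Mrpl11, 25.6 for Mrpl55, 40.5 for Mrps24, 43.1 for Mrpl34, 43.3 for Mrpl32, 44.4 for Mrps12, 48.9 for Mrpl36, 60.6 for Mrps26, 66.0 for Mrps18a, 69.9 for Mrpl27, 81.8 for Mrpl48, 103 for Mrps16 and 110.5 for Mrpl12. The other 4 cases were single NRAS tumors. NRAS tumor 1 was high for Mrpl23 at 69.3 FPKM, NRAS tumor 2 low for Mrpl21 at 22.4 FPKM, NRAS tumor 3 low for Mrpl53 at 47.6 FPKM, and NRAS tumor 4 low for Mrpl20 at 103 FPKM, where the NRAS tumors span less than 4 FPKM. The values of one library share its scaling, so these cases are not independent of each other. PDGFB tumor 4 also had the highest share of small RNA, 42.8% of its FPKM sum, and the part of that share in these values was not tested.

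In 5 genes the tumor models differed in limma's test of NRAS against PDGFB tumors. The log2 fold change was 1.26 for Mrps6, -0.53 for Mrpl50, -0.44 for Mrps5, -0.40 for Mrpl57 and -0.34 for Mrps33. The calls of Mrps6 and Mrpl50 were kept in every alternative run, and the report names the libraries without which the other 3 were lost. Those 3 were also lost with the replicate block, in a fit of the 2 groups alone and within title numbers 2038 to 2046. Upper-quartile scaling lost them as well (limma, adjusted p = 0.0504 to 0.137 over these runs). Mrps5 was lost after quantile normalization too (adjusted p = 0.054).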

How the results depend on the processing

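Of the 28 calls in NRAS tumors against normal brain, 9 were kept in every alternative run (Mrpl13, Mrpl17, Mrpl22, Mrpl33, Mrpl34, Mrpl52, Mrps6, Mrps18b and Mrps28). Of the 36 in PDGFB tumors, 3 were kept (Mrpl23, Mrpl52 and Mrps24), and of the 5 between the models 2. No named gene with a call changed sign. Of the counts that moved by over 1.5 times, the number higher in NRAS tumors (27) was 15 with the title number run as a term, 14 within title numbers 1834 to 1838, and 12 to 31 with 1 library left out. The number lower there (1) was 5 without small RNA genes, 0 with the run as a term, 3 in a fit of the 2 groups alone, 0 within the run, and 1 to 4 with 1 library left out. In PDGFB tumors the number higher (35) was 5 with the run as a term and 18 to 38 with 1 library left out, and the number lower (1) was 4 without small RNA genes, 0 with the run as a term, 0 in a fit of 2 groups, and 0 to 3 with 1 library left out. Between the models the number higher (1) was 2 after quantile normalization, without small RNA genes and with upper-quartile scaling, and 1 to 2 with 1 library left out; the number lower (4) was 1 in a fit of 2 groups, within title numbers 2038 to 2046 and with upper-quartile scaling, and 1 to 5 with 1 library left out. The causes were not tested.

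Same-numbered libraries of different groups correlated at -0.50 to 0.16 in their deviations from the group means. The pairs matched in the titles, at -0.08 and 0.13, lay within that range. These values therefore cannot decide whether the replicate numbers pair the samples. With the replicate block, 14 were higher and 2 lower in NRAS tumors, 24 and 1 in PDGFB tumors, and 2 and 1 between the models. With the matched pairs as a random block the counts were 27 and 1, 35 and 1, and 1 and 4. Depth in reads is unknown.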
